A study of Mus musculus with 6 samples.

Results

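Interferon-stimulated genes were examined in 6 RNA-seq libraries of primary mouse chondrocytes, cartilage cells grown in culture and, according to the series, differentiated there. The 40 genes were taken by name, as well-known effectors and sensors of the interferon response, from a table of 55401 genes, and each matched 1 row. There were 3 Nf2-knockout libraries, from Nf2f/f cells (both copies of Nf2 floxed) in which the gene was knocked out, and 3 Nf2f/f control libraries. Nf2 encodes merlin, a tumour suppressor at the cell membrane that feeds into Hippo signalling. The labels also give the Nf2-knockout libraries, and not the controls, a treatment entry of TCF21 overexpression, which their titles do not mention. Library names carry the tag D7 in both groups. The sources used here give neither the meaning of that tag nor the Cre driver, strain, age or number of animals. Whether replicates are separate animals or cultures is not stated, so the p-values cover the spread among these libraries alone, and that spread may be technical.

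Interferons are secreted proteins that cells release on sensing foreign or misplaced nucleic acid. Type I interferons bind a receptor made of IFNAR1 and IFNAR2, whose kinases JAK1 and TYK2 phosphorylate STAT proteins. These join IRF9 and bind the interferon-stimulated response element in the promoters of target genes. The targets include proteins that bind viral RNA, degrade RNA, stop translation or trap virus particles, as well as the sensors and transcription factors of the pathway itself. Many are detectable at a low level in cells without infection.

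The libraries held between 50906043 and 63748798 counts. Nf2 had 87.9, 101 and 97.4 CPM (counts scaled to depth, with TMM factors that correct for library composition) in Nf2-knockout replicates 1 to 3, against 126, 133 and 122 CPM in control replicates 1 to 3. The groups did not overlap (log2 fold change −0.41, SE 0.0866, adjusted p = 0.0305), and transcripts of the gene remained in the knockout libraries. The Nf2 call ended when any 1 library was left out (adjusted p from 0.0518 to 0.123). Tcf21 had 0, 2 and 0 counts in Nf2-knockout libraries and 0 in each control. The 16 chondrocyte markers were each detected in every library and summed to between 774 and 1623 CPM in the Nf2-knockout libraries and between 752 and 1098 CPM in the controls. Comp, Col2a1 and Cnmd were the most abundant of them, at mean levels of 125, 40.1 and 20.9 FPKM (fragments scaled to transcript length and depth) over all libraries. The 10 fibroblast markers, led by Lum, Fn1 and Col1a1, summed to between 14314 and 16321 CPM in the Nf2-knockout libraries and between 18044 and 21253 CPM in the controls. Values in the libraries of a group are in the order of replicates 1 to 3, and means are ± SD with n = 3. Fold changes, of Nf2-knockout over control, come from edgeR's quasi-likelihood test, with Benjamini-Hochberg adjustment of p over all genes tested.

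As a group the interferon-stimulated genes were lower in Nf2-knockout chondrocytes. All 40 passed the filter on low counts; 21 fell, 0 rose and 19 did not pass the test, which makes 52.5% lower where 5.18% of the 18218 genes tested were lower and 4.11% higher. The 40 genes and the gene lists below were chosen with earlier results of these data known. Such shares beside the background are therefore a description and not a test. Over all genes 944 fell and 749 rose; on the deposited FPKM (limma on log2(FPKM + 1)) 577 fell and 960 rose, and the 40 genes gave 15 falls and 0 rises. The median log2 fold change of the 40 genes was −0.99, against −0.010 for all tested genes. At least 2-fold falls that passed the test numbered 11 of 40 (27.5%, background 2.32%), and 33 of 40 (82.5%, background 13.2%) were lower at an unadjusted p under 0.05. All 3 Nf2-knockout libraries lay below all 3 controls for 32 of the 40 genes (80.0%, background 17.4%), and the reverse order was found for 0 (background 15.5%). The log2 fold change was below 0 for each of the 40 genes (background 51.1%), from −2.03 for Zbp1 to −0.036 for Ifit2. On the deposited FPKM the sign was the opposite for Ifit2 and Ifi35, and with a pseudocount of 0.1 for Cmpk2 too, all 3 of them genes that did not pass in any fit made.

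**Figure D1:**
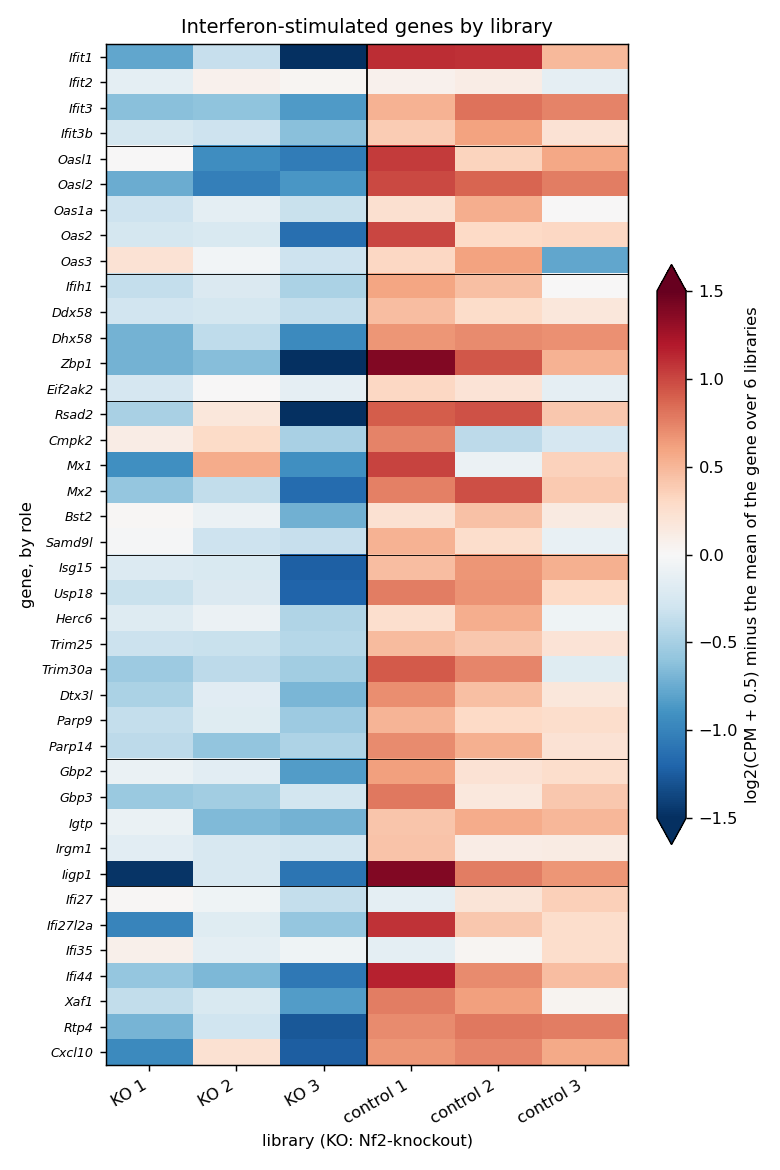
Level of the 40 interferon-stimulated genes (rows, by role) in the 3 Nf2-knockout (KO) and 3 control libraries (columns), as log2(CPM + 0.5) minus the gene's mean over the 6 libraries; red is above that mean and blue below. The Nf2-knockout columns are blue for most genes and the control columns red, Nf2-knockout replicate 3 is darkest blue, and Ifit2, Cmpk2, Ifi27 and Ifi35 show little contrast between groups.

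The number of falls moved with single libraries. Omission of Nf2-knockout replicates 1, 2 and 3 in turn gave 8 (background 1.7%), 17 (3.75%) and 11 (2.16%) falls. Omission of control replicates 1, 2 and 3 gave 10 (2.79%), 11 (2.02%) and 18 (3.14%) falls, and there were 0 rises in each of the 6 fits. Of these falls 7, 15 and 10 (Nf2-knockout libraries omitted) and 10, 11 and 17 (controls omitted) were among the 21. The median log2 fold change of the 40 genes lay between −1.05 and −0.84 in these 6 fits. Calls for Ifit3, Oasl2, Dhx58, Trim25, Parp14 and Ifi44 held in all 6. For every other of the 40 genes said to fall, the libraries whose omission ended the call are named beside it. With all libraries, 29 of the 40 genes fell in DESeq2 (background 4.99%), 19 with DESeq2 size factors in edgeR (4.85%), 17 with no filter on low counts (2.72%) and 22 with a stricter filter (5.82%). The DESeq2 background is a share of all 27103 genes with a count, whether or not DESeq2 gave them an adjusted p. It may thus be too low as a share of genes tested. A replicate block gave 16 falls (2.93%), and limma on log2(FPKM + 0.1) gave 15 (3.18%), again with 0 rises in each.

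Within each group most of the genes ranked the libraries alike. Nf2-knockout replicate 3 had the lowest of the 3 Nf2-knockout values for 30 of the 40 genes (75.0%, against 32.7% of all tested genes), and control replicate 3 had the lowest control value for 26 (65.0%, against 33.8%). The highest value of its group was in Nf2-knockout replicate 2 and in control replicate 1 for 24 genes each. Summed over the 40 genes, the level was 1173, 1185 and 945 CPM in the Nf2-knockout libraries, against 1834, 1841 and 1662 CPM in the controls. The sums did not overlap, and the Nf2-knockout mean of 1101 ± 135 CPM was 0.619 of the control mean of 1779 ± 102 CPM. Ifi27 and Bst2 held a large part of these sums, and without them the ratio of means was 0.561. A list of 18 macrophage and myeloid markers was also lower, with sums of 123, 92.9 and 52.4 CPM in the Nf2-knockout libraries, against 176, 480 and 234 CPM in the controls. Nf2-knockout replicate 3 was the lowest library for both sums. Control replicate 2 was the highest for both, but for the 40 genes it was nearly level with control replicate 1 (1841 and 1834 CPM). Without Ifi27 and Bst2 control replicate 1 was the highest (1426 CPM, against 1344 CPM in control replicate 2). For the macrophage and myeloid markers control replicate 1 was the lowest control. The part of such cells in the levels of the interferon-stimulated genes was not tested, and in bulk RNA fewer cells of a type and less RNA per cell cannot be told apart.

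**Figure D2:**
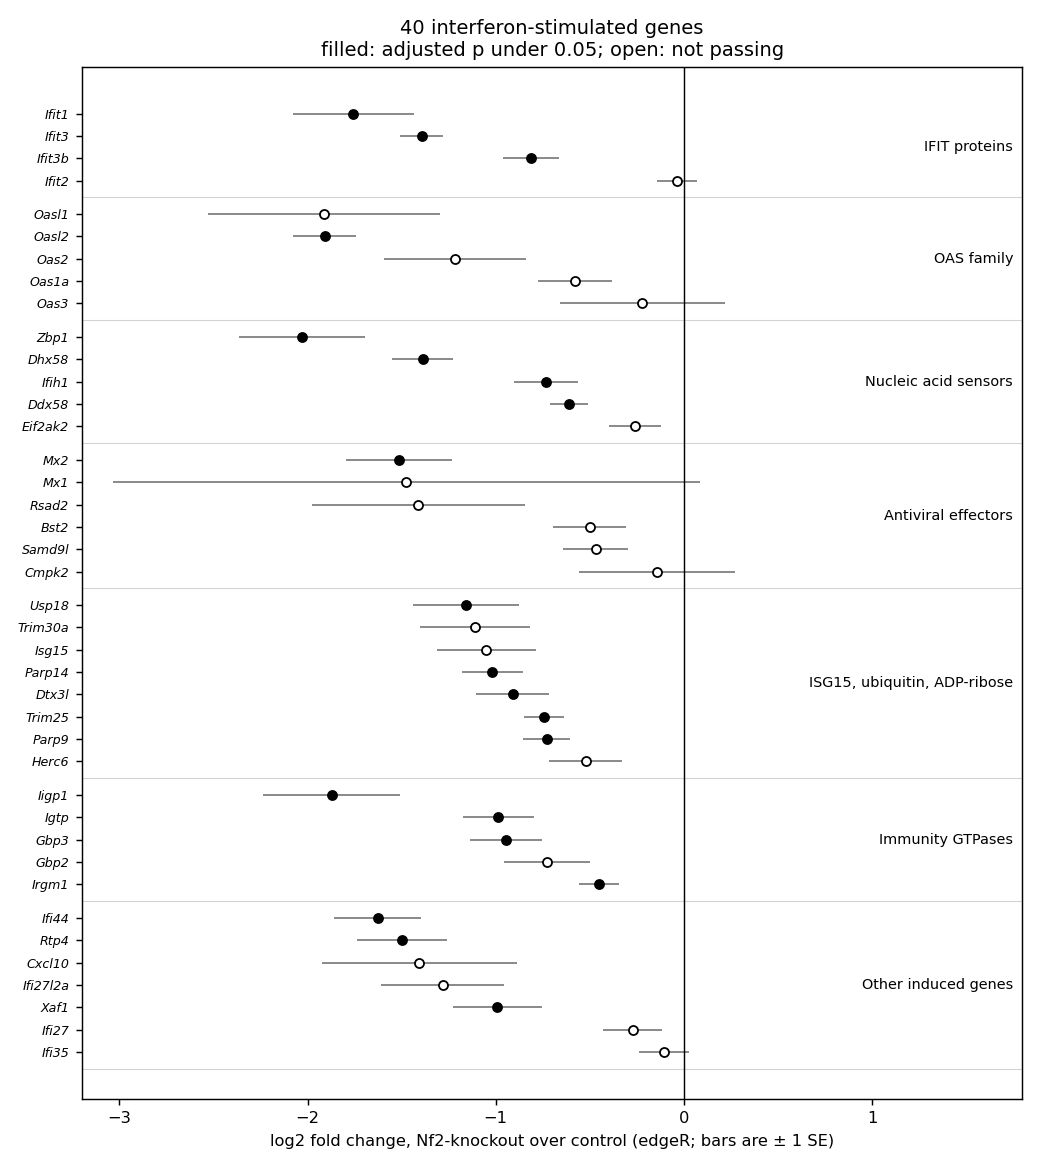
Log2 fold change of each of the 40 genes (points, with ± 1 SE from edgeR) in Nf2-knockout over control libraries, grouped by role; filled points have an adjusted p under 0.05. All points lie below 0, between −2.03 (Zbp1) and −0.036 (Ifit2), and each role holds both filled and open points.

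The IFIT proteins include members that bind RNA lacking the cap of the cell's own messengers and block its translation. The 4 IFIT genes lie close together on chromosome 19, and 3 of the 4 fell (75%, background 5.18%) while Ifit2 did not pass. Ifit3 (ENSMUSG00000074896, chromosome 19, 34583531 to 34588731, plus strand, as the deposited table gives it; 36 of the 40 positions equal GENCODE M21 on GRCm38) was the most abundant, at mean levels of 29.8 FPKM in Nf2-knockout and 73.0 FPKM in control libraries, and had 58.3, 59.5 and 49.9 CPM in the Nf2-knockout libraries, against 130.4, 159 and 151 CPM in the controls. The groups did not overlap and Ifit3 had the smallest p of the 40 genes (log2 fold change −1.39, SE 0.114, adjusted p = 0.00317). Ifit1 (chromosome 19, 34640871 to 34650009, plus strand), the member that recognises improperly capped RNA, had 30.3, 41.0 and 17.3 CPM in the Nf2-knockout libraries, against 113, 113 and 73.3 CPM in the controls. It averaged 29.5 ± 11.9 CPM in the Nf2-knockout and 99.7 ± 22.9 CPM in the control libraries (log2 fold change −1.76, SE 0.323, adjusted p = 0.0202). The Ifit1 call ended on omission of any of Nf2-knockout replicate 1 and control replicates 1 and 2 (adjusted p from 0.0596 to 0.0788). Ifit3b (chromosome 19, 34607970 to 34613401, plus strand), a close copy of Ifit3, had 31.0, 29.9 and 24.0 CPM in the Nf2-knockout libraries, against 48.8, 57.1 and 43.4 CPM in the controls. The Ifit3b call (log2 fold change −0.81, SE 0.147, adjusted p = 0.0195) ended on omission of any of Nf2-knockout replicates 1 and 3 and control replicates 1 and 2 (adjusted p from 0.0532 to 0.0633). Ifit3 and Ifit3b share much of their sequence, 51.2% and 45.0% of the distinct 50-base stretches of their transcripts, mainly with each other, so the split of reads between them is uncertain. The summed level of both genes was 89.3, 89.4 and 73.9 CPM in the Nf2-knockout libraries, against 179, 216 and 195 CPM in the controls, without overlap.

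Ifit2 (chromosome 19, 34550694 to 34576419, plus strand), which binds AU-rich RNA together with its relatives, had 51.5, 59.7 and 57.9 CPM in the Nf2-knockout libraries, against 59.8, 61.8 and 51.9 CPM in the controls. The groups overlapped (log2 fold change −0.036, SE 0.107, adjusted p = 0.876), and the sign of the fold change turned positive when Nf2-knockout replicate 1 (0.045) or control replicate 2 (0.014) was left out. As a description, chosen after the values were seen, log2 of Ifit3 over Ifit2 within a library averaged −0.015 ± 0.196 in Nf2-knockout and 1.34 ± 0.209 in control libraries. The ratio of Ifit3b over Ifit2 averaged −1.0 ± 0.269 in Nf2-knockout and −0.22 ± 0.0961 in control libraries on this scale. That of Ifit1 over Ifit2 averaged −1.02 ± 0.640 in Nf2-knockout and 0.76 ± 0.230 in control libraries. An exact permutation test gave p = 0.1 for each ratio. This is the smallest value that 3 against 3 libraries allow, so the test could not pass.

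**Figure D3:**
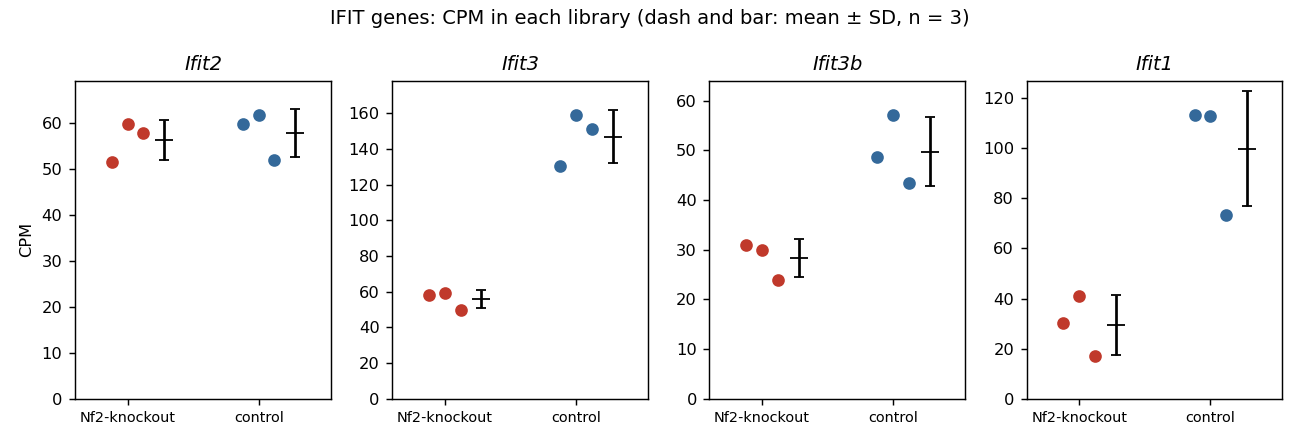
CPM of the 4 IFIT genes in each of the 3 Nf2-knockout (left in each panel) and 3 control libraries (right), with mean ± SD beside the points (n = 3) and each axis starting at 0. The groups overlap for Ifit2 and are apart for Ifit3, Ifit3b and Ifit1.

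The promoters of the 40 genes were read from RefSeq (GRCm38.p6), from 250 bases before to 50 bases after the annotated start, and searched for the core of the interferon-stimulated response element on both strands: GAAA, then any 2 bases, then GAAA, with matches allowed to overlap. Of the 40 genes 28 had an entry, and 17 of these (60.7%) held a match, against 3.99% of 27025 genes in the table. Matches were found in 8 of the 13 matched genes that fell and in 9 of the 15 that did not pass. Windows of Gbp3, Isg15, Oas1a, Bst2 and Irgm1 held matches that overlap by sharing a GAAA block. The windows of Ifit2 held no match in these letters. The 4 genes with a match and the smallest p-values in the comparison are shown, to 20 bases past the start, so that the element can be seen beside the fold change. Capitals mark the matches, which may read on the other strand, as TTTC, any 2 bases and TTTC.
Ifit3: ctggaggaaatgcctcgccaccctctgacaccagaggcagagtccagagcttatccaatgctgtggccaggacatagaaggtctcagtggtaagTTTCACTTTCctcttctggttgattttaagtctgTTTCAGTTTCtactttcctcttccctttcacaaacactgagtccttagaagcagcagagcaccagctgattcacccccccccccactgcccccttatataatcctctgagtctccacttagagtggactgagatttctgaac
Ifit3b: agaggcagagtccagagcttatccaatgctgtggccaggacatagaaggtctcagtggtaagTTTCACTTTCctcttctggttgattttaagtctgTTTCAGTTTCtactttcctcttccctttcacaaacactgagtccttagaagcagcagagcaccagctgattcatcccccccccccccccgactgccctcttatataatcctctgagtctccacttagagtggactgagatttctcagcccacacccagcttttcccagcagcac
Ifit1: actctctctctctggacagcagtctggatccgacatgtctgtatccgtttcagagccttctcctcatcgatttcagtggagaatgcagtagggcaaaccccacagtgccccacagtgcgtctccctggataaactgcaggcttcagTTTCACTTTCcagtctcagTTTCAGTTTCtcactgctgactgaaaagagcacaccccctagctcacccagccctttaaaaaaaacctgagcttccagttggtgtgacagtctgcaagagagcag
Ddx58: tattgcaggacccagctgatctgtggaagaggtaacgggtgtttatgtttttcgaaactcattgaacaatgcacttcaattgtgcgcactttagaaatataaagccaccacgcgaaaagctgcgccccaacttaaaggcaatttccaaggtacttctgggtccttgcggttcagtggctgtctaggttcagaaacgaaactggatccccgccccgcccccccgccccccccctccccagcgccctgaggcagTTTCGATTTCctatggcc
The windows are chr19:34583279-34583548 (plus strand), chr19:34607707-34607976 (plus strand), chr19:34640639-34640908 (plus strand) and chr4:40239806-40240075 (minus strand). Ifit3 and Ifit3b share an unbroken run of 169 bases that holds both of their matches, which start 156 and 122 bases before the start of Ifit3 and 188 and 154 bases before that of Ifit3b. In Ifit1 the matches start at 104 and 85 bases before the start, and in Ddx58 the match lies at bases 3 to 12 after it. A match is a description of the sequence and not a measured binding site.

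The OAS enzymes make short oligoadenylates that activate RNase L, which cuts RNA. Of 5 genes of the family 1 fell (20%, background 5.18%) and 0 rose, and the log2 fold changes lay between −1.91 and −0.22. Oasl2 (chromosome 5, 114896936 to 114912234, plus strand), an active synthetase in the mouse, had 3.52, 2.80 and 3.16 CPM in the Nf2-knockout libraries, against 12.9, 11.8 and 11.0 CPM in the controls. The groups were far apart relative to their spread (log2 fold change −1.91, SE 0.168, adjusted p = 0.00317). Oasl1, which in mice restrains translation of Irf7, had 1.03, 0.301 and 0.240 CPM in the Nf2-knockout libraries, against 2.66, 1.43 and 1.79 CPM in the controls, the same fold change at a lower level (log2 fold change −1.91, SE 0.616, adjusted p = 0.108). Oasl1 passed on omission of Nf2-knockout replicate 1 (adjusted p = 0.0404). Oas1a, the most abundant of the family at 2.69 FPKM in Nf2-knockout and 3.76 FPKM in control libraries, had 5.25, 5.96 and 5.18 CPM in the Nf2-knockout libraries, against 7.93, 9.90 and 6.64 CPM in the controls (log2 fold change −0.58, SE 0.196, adjusted p = 0.122). Its groups did not overlap, but 57.6% of the 50-base stretches of its transcripts also occur in other genes, mainly Oas1g, so its count is uncertain. Oas2 had a log2 fold change of −1.22 (adjusted p = 0.0954), and Oas3, whose groups overlapped, of −0.22 (adjusted p = 0.809).

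Among the 5 sensors of nucleic acid, 4 fell (80%, background 5.18%). Zbp1 (chromosome 2, 173206612 to 173218923, minus strand), which binds Z-form nucleic acid and can start necroptosis, had 4.23, 4.45 and 2.25 CPM in the Nf2-knockout libraries, against 19.8, 14.2 and 10.6 CPM in the controls. This was the lowest fold change of the 40 genes (log2 fold change −2.03, SE 0.335, adjusted p = 0.0144). The Zbp1 call ended on omission of Nf2-knockout replicate 1 (adjusted p = 0.0515). The 3 genes of the RIG-I family of RNA helicases all fell. Dhx58 (chromosome 11, 100694884 to 100704271, minus strand), which encodes the regulator LGP2, had 9.82, 12.4 and 8.22 CPM in the Nf2-knockout libraries, against 26.1, 27.0 and 26.6 CPM in the controls (log2 fold change −1.39, SE 0.164, adjusted p = 0.00551). The controls lay within 26.1 to 27.0 CPM and the Nf2-knockout libraries at 12.4 CPM or below. Ddx58 (chromosome 4, 40203773 to 40239825, minus strand), the gene of RIG-I, whose promoter is shown above, had 57.9, 59.2 and 55.5 CPM in the Nf2-knockout libraries, against 97.8, 85.7 and 79.9 CPM in the controls. The Ddx58 call (log2 fold change −0.61, SE 0.0998, adjusted p = 0.0139) ended on omission of any of Nf2-knockout replicates 1 and 3 (adjusted p from 0.0642 to 0.0668). Ifih1 (chromosome 2, 62595798 to 62646211, minus strand), which encodes MDA5, a sensor of long double-stranded RNA, had 17.5, 19.2 and 16.05 CPM in the Nf2-knockout libraries, against 34.2, 31.0 and 22.5 CPM in the controls. The Ifih1 call (log2 fold change −0.73, SE 0.172, adjusted p = 0.0427) ended on omission of any of Nf2-knockout replicates 1, 2 and 3 and control replicates 1 and 2 (adjusted p from 0.0773 to 0.142). Both of these genes separated the groups, with the smaller change in the more abundant Ddx58. Eif2ak2, the gene of the kinase PKR that stops translation, was the most abundant sensor, at 10.1 FPKM in Nf2-knockout and 11.2 FPKM in control libraries. It had 50.5, 60.6 and 54.8 CPM in the Nf2-knockout libraries, against 74.6, 69.2 and 54.8 CPM in the controls, and the groups overlapped (log2 fold change −0.26, SE 0.137, adjusted p = 0.299).

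Of 6 antiviral effectors 1 fell (16.7%, background 5.18%). Mx2 (chromosome 16, 97535308 to 97560900, plus strand), a dynamin-like GTPase gene, had 3.52, 4.17 and 2.22 CPM in the Nf2-knockout libraries, against 9.65, 11.3 and 7.39 CPM in the controls. The Mx2 call (log2 fold change −1.51, SE 0.284, adjusted p = 0.0212) ended on omission of any of Nf2-knockout replicate 1 and control replicates 1 and 2 (adjusted p from 0.0595 to 0.0750). Mx1, its neighbour, had 0, 0.887 and 0 CPM in the Nf2-knockout libraries, against 1.40, 0.390 and 0.701 CPM in the controls (log2 fold change −1.47, SE 1.56, adjusted p = 0.625). The libraries without counts were both Nf2-knockout, and with only these in that group, on omission of replicate 2, Mx1 passed (adjusted p = 0.0357). Bst2, which encodes tetherin, a membrane anchor of budding virus, was the most abundant effector at 129 FPKM in Nf2-knockout and 170.4 FPKM in control libraries. It had 149, 138 and 88.9 CPM in the Nf2-knockout libraries, against 172, 199 and 161 CPM in the controls, without overlap (log2 fold change −0.50, SE 0.195, adjusted p = 0.167). Rsad2, the gene of viperin, which makes a chain-terminating nucleotide, had 3.60, 5.94 and 0.973 CPM in the Nf2-knockout libraries, against 10.2, 10.6 and 7.09 CPM in the controls (log2 fold change −1.41, SE 0.568, adjusted p = 0.180). Cmpk2, a nucleotide kinase gene that lies beside Rsad2 on chromosome 12, had 3.39, 3.90 and 2.08 CPM in the Nf2-knockout libraries, against 5.55, 2.24 and 2.54 CPM in the controls, with overlapping groups (log2 fold change −0.14, SE 0.417, adjusted p = 0.872). The pair thus differed in whether the libraries separated; the difference between them was not tested. Samd9l, a restriction factor that inhibits translation, had a log2 fold change of −0.47 (adjusted p = 0.149).

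Genes of protein tagging by ISG15, ubiquitin and ADP-ribose gave 5 falls among 8 (62.5%, background 5.18%), and for all 8 each Nf2-knockout library lay below each control (background 17.4%). Isg15 (chromosome 4, 156199455 to 156200796, minus strand), the ubiquitin-like modifier itself, was at 36.3 FPKM in Nf2-knockout and 70.2 FPKM in control libraries and had 33.4, 32.7 and 16.2 CPM in the Nf2-knockout libraries, against 53.3, 61.2 and 56.0 CPM in the controls. It missed the threshold narrowly (log2 fold change −1.05, SE 0.262, adjusted p = 0.0517), and passed without Nf2-knockout replicate 3 (adjusted p = 0.0252). Usp18 (chromosome 6, 121245906 to 121270917, plus strand), the protease that removes ISG15 and also restrains the receptor, had 10.7, 11.6 and 5.63 CPM in the Nf2-knockout libraries, against 23.4, 22.0 and 16.8 CPM in the controls. The Usp18 call (log2 fold change −1.16, SE 0.281, adjusted p = 0.0477) ended when any 1 library was left out (adjusted p from 0.0564 to 0.134). Nf2-knockout replicate 3 was the lowest library for both genes. Trim25 (chromosome 11, 88999376 to 89020293, plus strand), a ubiquitin ligase acting with RIG-I, had 30.3, 29.97 and 28.1 CPM in the Nf2-knockout libraries, against 53.2, 50.6 and 44.1 CPM in the controls (log2 fold change −0.74, SE 0.106, adjusted p = 0.00972). The spread within both groups was small beside the difference. Dtx3l and Parp9 encode a ubiquitin ligase and its ADP-ribosyltransferase partner and overlap head to head on chromosome 16. Dtx3l had 11.6, 14.4 and 9.94 CPM in the Nf2-knockout libraries, against 26.8, 22.4 and 18.4 CPM in the controls. The Dtx3l call (log2 fold change −0.91, SE 0.193, adjusted p = 0.0316) ended on omission of any of Nf2-knockout replicates 1 and 3 and control replicates 1 and 2 (adjusted p from 0.0835 to 0.115). Parp9 had 40.6, 45.9 and 35.7 CPM in the Nf2-knockout libraries, against 74.9, 64.6 and 63.0 CPM in the controls. The Parp9 call (log2 fold change −0.73, SE 0.125, adjusted p = 0.0163) ended on omission of any of Nf2-knockout replicates 1 and 3 (adjusted p from 0.0610 to 0.0734). About 8.09% of the 50-base stretches of Dtx3l and 7.71% of those of Parp9 occur in another gene, mainly each other, and the sources used here do not say whether counting used strand. Shares of this size were also found for Igtp (11.8%, mainly Irgm2), Rtp4 (11.6%, mainly Gm45338) and Ifit1 (7.13%, mainly Ifit1bl2), which fell. Among genes that did not pass, Herc6 had 12.5% and Ifi35 10.4%. Parp14 (chromosome 16, 35832874 to 35871544, minus strand), a mono-ADP-ribosyltransferase gene of the same region, had 9.25, 7.999 and 8.76 CPM in the Nf2-knockout libraries, against 20.3, 17.99 and 14.3 CPM in the controls (log2 fold change −1.02, SE 0.162, adjusted p = 0.0126). Trim30a passed on omission of control replicate 3 (adjusted p = 0.0164), but with all libraries Trim30a (log2 fold change −1.11, adjusted p = 0.0600) and Herc6, the main ISG15 ligase of the mouse (log2 fold change −0.52, adjusted p = 0.147), did not pass.

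The immunity GTPases attack the vacuoles of intracellular pathogens and are known mainly as targets of interferon gamma; 4 of 5 fell (80.0%, background 5.18%), and for all 5 each Nf2-knockout library lay below each control (background 17.4%). Iigp1 (chromosome 18, 60376027 to 60392634, plus strand) had 5.21, 12.9 and 6.90 CPM in the Nf2-knockout libraries, against 40.8, 26.3 and 24.5 CPM in the controls. The Iigp1 call (log2 fold change −1.87, SE 0.364, adjusted p = 0.0235) ended on omission of any of Nf2-knockout replicates 1 and 3 and control replicates 1 and 2 (adjusted p from 0.0623 to 0.0900). Igtp (chromosome 11, 58199556 to 58207591, plus strand) had 13.6, 8.98 and 8.73 CPM in the Nf2-knockout libraries, against 19.5, 21.5 and 20.8 CPM in the controls. The Igtp call (log2 fold change −0.99, SE 0.190, adjusted p = 0.0230) ended on omission of any of Nf2-knockout replicates 2 and 3 and control replicates 1, 2 and 3 (adjusted p from 0.0566 to 0.0784). Gbp3 (chromosome 3, 142560026 to 142573209, plus strand) had 9.96, 10.2 and 12.2 CPM in the Nf2-knockout libraries, against 25.9, 16.5 and 19.8 CPM in the controls. The Gbp3 call (log2 fold change −0.94, SE 0.190, adjusted p = 0.0264) ended on omission of any of Nf2-knockout replicates 1, 2 and 3 and control replicates 1 and 3 (adjusted p from 0.0563 to 0.104). No Nf2-knockout library reached the lowest control for these 3 genes. Irgm1 (chromosome 11, 48861968 to 48871683, minus strand), a regulator of the family, was the most abundant at 14.6 FPKM in Nf2-knockout and 18.7 FPKM in control libraries. It had 95.5, 90.3 and 88.3 CPM in the Nf2-knockout libraries, against 143, 115 and 116 CPM in the controls. The change was the smallest among the 21 of the 40 genes that fell. The Irgm1 call (log2 fold change −0.45, SE 0.108, adjusted p = 0.0463) ended when any 1 library was left out (adjusted p from 0.0609 to 0.154). Gbp2 had a log2 fold change of −0.73 (adjusted p = 0.0977).

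Of the 7 remaining induced genes 3 fell (42.9%, background 5.18%). Ifi44 (chromosome 3, 151730922 to 151749960, minus strand) had 8.29, 7.76 and 5.75 CPM in the Nf2-knockout libraries, against 28.9, 20.9 and 17.6 CPM in the controls (log2 fold change −1.63, SE 0.229, adjusted p = 0.00945). Rtp4 (chromosome 16, 23520291 to 23614222, plus strand), an antiviral protein gene of the receptor transporter family, had 13.3, 17.6 and 8.73 CPM in the Nf2-knockout libraries, against 36.1, 38.3 and 37.5 CPM in the controls. The Rtp4 call (log2 fold change −1.50, SE 0.238, adjusted p = 0.0126) ended on omission of Nf2-knockout replicate 1 (adjusted p = 0.0589). The controls of Rtp4 lay close together, and the Nf2-knockout libraries were spread more widely below them. Xaf1 (chromosome 11, 72301629 to 72313733, plus strand), which encodes an antagonist of the apoptosis inhibitor XIAP, had 14.5, 16.1 and 10.4 CPM in the Nf2-knockout libraries, against 32.6, 29.3 and 19.5 CPM in the controls. The Xaf1 call (log2 fold change −0.99, SE 0.237, adjusted p = 0.0454) ended on omission of any of Nf2-knockout replicates 1, 2 and 3 and control replicates 1 and 2 (adjusted p from 0.0647 to 0.134). Cxcl10, the chemokine that draws CXCR3-bearing lymphocytes, had 0.919, 2.74 and 0.674 CPM in the Nf2-knockout libraries, against 3.86, 4.08 and 3.57 CPM in the controls (log2 fold change −1.41, SE 0.518, adjusted p = 0.146), and passed without Nf2-knockout replicate 2 (adjusted p = 0.0143). Ifi27l2a had a log2 fold change of −1.28 (adjusted p = 0.0552). Ifi27, the most abundant of the 40 genes at 152 FPKM in Nf2-knockout and 171 FPKM in control libraries, had 265, 250.2 and 203 CPM in the Nf2-knockout libraries, against 236, 299 and 334 CPM in the controls. Its groups overlapped (log2 fold change −0.27, SE 0.155, adjusted p = 0.335), as did those of Ifi35, which had 39.2, 33.6 and 35.5 CPM in the Nf2-knockout libraries, against 33.6, 37.9 and 44.8 CPM in the controls (log2 fold change −0.10, SE 0.132, adjusted p = 0.690).

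The pathway around these genes was examined next, from lists of ligands, receptors, signalling proteins, sensors and regulators. Interferon genes themselves were barely detected. Of 20 ligand genes, 18 had 0 counts in every library, Ifnb1 and Ifng among them, where 3 counts, the floor that a count of 0 allows, correspond to between 0.0449 and 0.0574 CPM per library, which covers counting error only. The exceptions were Ifne and Ifnz, at most 0.45 CPM in any library. Ifnz was the 1 ligand gene tested, with a log2 fold change of 0.39 (adjusted p = 0.903).

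Of 6 receptor genes 1 fell (16.7%, background 5.18%) and 0 rose. Ifnar1 (chromosome 16, 91485238 to 91507441, plus strand), which encodes a chain of the type I receptor, had 49.0, 43.3 and 53.0 CPM in the Nf2-knockout libraries, against 69.4, 87.3 and 72.6 CPM in the controls. The groups did not overlap (log2 fold change −0.66, SE 0.125, adjusted p = 0.0221). The Ifnar1 call ended on omission of any of Nf2-knockout replicates 1 and 2 and control replicate 2 (adjusted p from 0.0638 to 0.0815). Ifnar2, the gene of the partner chain, had 53.3, 46.0 and 48.8 CPM in the Nf2-knockout libraries, against 53.0, 52.6 and 71.5 CPM in the controls, with overlapping groups (log2 fold change −0.26, SE 0.142, adjusted p = 0.321). The receptor genes for interferon gamma, Ifngr1 (log2 fold change −0.29, adjusted p = 0.721) and Ifngr2 (0.16, adjusted p = 0.578), did not pass.

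Of 13 JAK, STAT and IRF genes 4 fell and 0 rose (30.8%, background 5.18%), with Stat2, Irf9 and Irf7 among them. Stat2 (chromosome 10, 128270559 to 128292849, plus strand) had 22.4, 20.7 and 18.2 CPM in the Nf2-knockout libraries, against 29.6, 27.0 and 33.8 CPM in the controls. The Stat2 call (log2 fold change −0.56, SE 0.131, adjusted p = 0.0423) ended when any 1 library was left out (adjusted p from 0.0679 to 0.137). Irf9 (chromosome 14, 55603571 to 55610030, plus strand), the DNA-binding part of the complex on the response element, had 49.99, 49.7 and 40.1 CPM in the Nf2-knockout libraries, against 72.5, 69.1 and 61.4 CPM in the controls. The Irf9 call (log2 fold change −0.54, SE 0.121, adjusted p = 0.0374) ended on omission of any of Nf2-knockout replicates 1, 2 and 3 and control replicates 1 and 2 (adjusted p from 0.0683 to 0.116). Irf7 (chromosome 7, 141262706 to 141266481, minus strand), the factor that amplifies interferon production, had 9.63, 10.5 and 8.49 CPM in the Nf2-knockout libraries, against 26.0, 20.98 and 18.9 CPM in the controls (log2 fold change −1.20, SE 0.161, adjusted p = 0.00823), and its call held in all 6 fits. These genes are interferon-stimulated themselves. The kinase genes Jak1 (log2 fold change −0.26, adjusted p = 0.0942) and Tyk2 (0.26, adjusted p = 0.217) did not pass, nor did Irf3 (0.11, adjusted p = 0.555), the factor activated directly by the sensors. In the list as a whole 11 of 13 genes had a log2 fold change below 0 (background 51.1%), all but Tyk2 and Irf3. All Nf2-knockout libraries lay below all controls for 10 of the 13 (76.9%, background 17.4%), Jak1 among them. The reverse order was found for 1 (background 15.5%), Tyk2.

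Among 19 tested genes of sensing and its adaptors, 1 fell and 0 rose (5.26%, background 5.18%). The fall was Tlr7, an endosomal RNA receptor found mainly on leukocytes, with 0.670, 0.412 and 0.569 CPM in the Nf2-knockout libraries, against 1.79, 3.56 and 1.91 CPM in the controls. The Tlr7 call (log2 fold change −2.13, SE 0.402, adjusted p = 0.0214) ended on omission of any of Nf2-knockout replicates 1, 2 and 3 and control replicate 2 (adjusted p from 0.0611 to 0.0711). Mavs, the mitochondrial adaptor of RIG-I, had a log2 fold change of −0.048 (adjusted p = 0.826), Tbk1 of 0.11 (adjusted p = 0.511), Cgas of 0.22 (adjusted p = 0.739) and Sting1 of −0.55 (adjusted p = 0.162). Of 8 negative regulators 1 fell (12.5%, background 5.18%) and 1 rose (background 4.11%). Ptpn2 (chromosome 18, 67665511 to 67724588, minus strand), a phosphatase that acts on JAK1, had 53.5, 53.3 and 36.6 CPM in the Nf2-knockout libraries, against 73.3, 78.3 and 84.9 CPM in the controls. The Ptpn2 call (log2 fold change −0.72, SE 0.160, adjusted p = 0.0361) ended when any 1 library was left out (adjusted p from 0.0507 to 0.104). Ptpn11 (chromosome 5, 121130533 to 121191397, minus strand), the gene of SHP2, which also carries growth factor signals to ERK, had 223, 223 and 239.5 CPM in the Nf2-knockout libraries, against 152, 159 and 146 CPM in the controls (log2 fold change 0.58, SE 0.0788, adjusted p = 0.00828), and its call held in all 6 fits. Socs1, the classical feedback inhibitor, had 5.38, 4.74 and 5.57 CPM in the Nf2-knockout libraries, against 6.07, 6.96 and 6.60 CPM in the controls, without overlap (log2 fold change −0.32, SE 0.165, adjusted p = 0.284).

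Markers of cell types were also read in these libraries, and the summed levels of macrophage and of fibroblast markers were lower in Nf2-knockout libraries, without overlap. Whether this bears on the interferon-stimulated genes was not tested. Of 17 tested macrophage and myeloid markers 6 fell and 0 rose (35.3%, background 5.18%), and for 14 all Nf2-knockout libraries lay below all controls (82.4%, background 17.4%). The falls were Cd68, Csf1r, C1qa, C1qb, Mrc1 and Laptm5, and omission of control replicate 1 left Csf1r, C1qb and Mrc1, of Nf2-knockout replicate 2 left Csf1r, and of any other library 0. The 18 markers of the list, led by Lyz2, Cd68 and Ctss at 48.8, 26.6 and 7.26 FPKM over all libraries had the sums given above. Lyz2 had 45.4, 31.6 and 12.5 CPM in the Nf2-knockout libraries, against 59.7, 205 and 82.9 CPM in the controls (log2 fold change −1.96, adjusted p = 0.0890). Cd68 had 33.1, 28.7 and 22.0 CPM in the Nf2-knockout libraries, against 43.2, 54.0 and 44.7 CPM in the controls (log2 fold change −0.76, adjusted p = 0.0369). Of the defining leukocyte genes, Ptprc had 0.345, 0.0634 and 0 CPM in the Nf2-knockout libraries, against 0.320, 2.19 and 0.280 CPM in the controls, and Aif1 had counts in control replicate 3 alone. Lymphocyte, natural killer and plasmacytoid dendritic cell markers were nearly absent, with 11 of 14 at 0 in every library, including the defining genes Cd3e, Ncr1 and Siglech, and a sum of at most 0.421 CPM in the 14, from Ly6d, Cd4 and Ms4a1. Endothelial markers, led by Egfl7, Kdr and Tek, summed to 9.29, 8.03 and 13.3 CPM in the Nf2-knockout libraries, against 8.47, 5.81 and 10.2 CPM in the controls. Among the 8 tested 1 rose (background 4.11%) and 0 fell. The rise was Kdr (log2 fold change 1.36, adjusted p = 0.0196). Of 16 chondrocyte markers 1 rose (background 4.11%) and 1 fell (6.25%, background 5.18%). The rise was Col2a1 (log2 fold change 1.33, adjusted p = 0.0446) and the fall was Col9a2 (log2 fold change −1.55, adjusted p = 0.0482). Of 10 fibroblast markers 3 fell (30%, background 5.18%) and 0 rose: Lum (log2 fold change −1.78, adjusted p = 0.0264), Pdgfra (log2 fold change −1.42, adjusted p = 0.00332) and Fbln1 (log2 fold change −1.39, adjusted p = 0.0269). For 6 of the 10 all Nf2-knockout libraries lay below all controls (60%, background 17.4%). Pdgfra held in all 6 fits without 1 library. The Lum call ended on omission of any of Nf2-knockout replicate 1 and control replicates 1, 2 and 3 (adjusted p from 0.0592 to 0.104), and the Fbln1 call on omission of any of Nf2-knockout replicates 1 and 2 and control replicate 1 (adjusted p from 0.0513 to 0.103). The Kdr call ended on omission of any of Nf2-knockout replicates 1 and 3 and control replicates 1 and 2 (adjusted p from 0.0532 to 0.0698). The Col2a1 call ended on omission of any of Nf2-knockout replicates 1 and 2 and control replicates 1, 2 and 3 (adjusted p from 0.0841 to 0.129), and the Col9a2 call on omission of any of Nf2-knockout replicates 1 and 3 and control replicates 1, 2 and 3 (adjusted p from 0.0679 to 0.147).

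**Figure D4:**
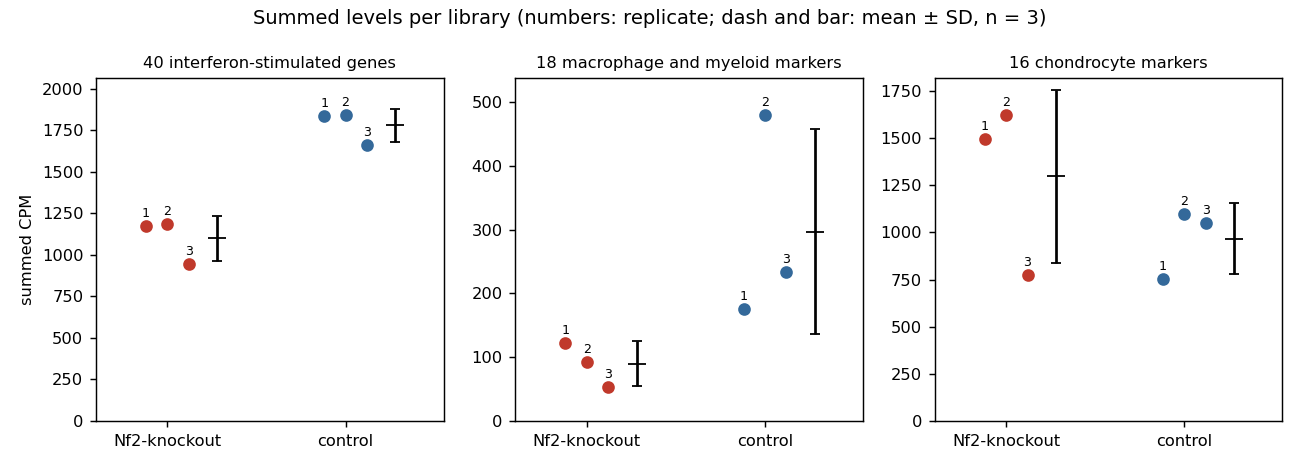
Summed CPM of the 40 interferon-stimulated genes, of 18 macrophage and myeloid markers and of 16 chondrocyte markers in each library (points, numbered by replicate), with mean ± SD (n = 3) and axes starting at 0. Nf2-knockout libraries lie below controls for the interferon-stimulated genes and for the macrophage markers, with Nf2-knockout replicate 3 lowest in both. Control replicate 2 is highest in both, nearly level with control replicate 1 for the interferon-stimulated genes. For the macrophage markers control replicate 1 is the lowest control. Chondrocyte markers overlap between groups.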

How the data were processed

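Poly(A) RNA was sequenced in 6 libraries. The authors deposited 1 table with whole-number gene counts and FPKM per library, per the file headers. Per the submitters' processing notes, cutadapt 1.9, HISAT2 2.0.4, StringTie 1.3.4d and edgeR were used, with no roles stated; how counts were made, strandedness and genome build are not given in the sources used here. Reads shared by near-identical genes may thus be split between them. Groups came from the sample titles. The 40 genes and all gene lists were chosen with earlier results of these data known.

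Counts were analysed in R 4.3.3 with edgeR 4.0.16 (filterByExpr, TMM, quasi-likelihood test on group, prior count 0.125, Benjamini-Hochberg adjustment over 18218 genes, two-sided, threshold 0.05) after tests on simulated data. The SE is the absolute fold change over the root of F. Alternatives were DESeq2 1.42.0 and its size factors, other count filters, a replicate block, limma 3.58.1 on FPKM, and leaving out each library. Library values were printed for every called gene and the most abundant gene of each role, and for Nf2, Ifnar1, Ifnar2, Stat2, Irf7, Irf9 and Socs1; Oasl1, Mx1, Rsad2, Cmpk2, Cxcl10, Ifit2 and Ifi35 were added after their values were seen. Some genes of the lists are counted but not reported here by name. Total counts lay between 50906043 and 63748798. Promoters and transcripts came from RefSeq and GENCODE tables.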

Additional observations from a re-analysis of the deposited data

How the results depend on the processing

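Of the 40 genes 21 fell, and 8 to 18 fell when each library was omitted in turn, of which 7 to 17 were among the 21. Their median log2 fold change moved to −0.58 on log2(FPKM + 1), a scale that shrinks low genes, and lay between −1.05 and −0.84 without single libraries. Genes called over the whole table numbered 1693, against 2618 with DESeq2, 923 with the replicate block and 629 to 1186 without single libraries. Deviations of same-numbered libraries correlated at −0.16, 0.014 and 0.021, and those of differently numbered libraries at −0.18 to 0.16. With so few libraries these values cannot show whether replicate numbers mark a shared source. With the block the calls for Ifih1, Igtp, Gbp3, Irgm1 and Iigp1 were lost, and those of receptors, sensing genes and negative regulators became 0, 0 and 1. On log2(FPKM + 1) the receptors had 0 calls, JAK, STAT and IRF genes 2, sensing genes 0 and negative regulators 1; with a pseudocount of 0.1 the receptors had 0, JAK, STAT and IRF genes 2 and negative regulators 1. Without single libraries these lists had 0 to 1, 2 to 3, 0 to 1 and 1 to 2 calls. Nf2 lost its call with the block (−0.41), on log2(FPKM + 1) (−0.29), with a pseudocount of 0.1 (−0.31) and without single libraries (−0.45 to −0.34). Signs turned positive for Ifit2 (0.062 and 0.066) and Ifi35 (0.0047 and 0.0052) on FPKM with pseudocounts of 1 and 0.1, and for Cmpk2 (0.025) with 0.1. Without single libraries the range was −0.11 to 0.045 for Ifit2, −0.37 to 0.38 for Cmpk2, −0.20 to 0.013 for Ifi35 and −0.58 to 0.13 for Oas3. The ratio of summed levels was 0.619, 0.626 with DESeq2 size factors and 0.662 scaled by library total, chosen after seeing the data. The causes of these shifts were not tested.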
